A study of Homo sapiens with 4 samples.

Results

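The autophagy machinery and its receptors were examined in U937 cells, a human cell line with features of monocytes. The study counts U937 among its acute myeloid leukemia lines. The 42 genes were chosen by name, from the initiation kinase complex to the receptors that carry cargo, and their rows were found through the Ensembl identifiers of the GENCODE annotation. Of these, 39 had a row among the 17656 genes of the table, and all 39 reached 1 TPM in at least 2 libraries and were tested among 14582 genes. ULK2, MAP1LC3A and BNIP3 were not analysed here. RNA was sequenced from 4 libraries, 2 labelled sh-ZNF217 and described as U937 with a ZNF217 knockdown, and 2 labelled NC and described as U937 without treatment. The study's methods describe lentiviral short hairpins against ZNF217, a zinc finger regulator of transcription, and also its CRISPR knockout in U937. The study's text speaks of a knockout for its RNA-Seq where the labels say knockdown, so which of these the libraries carried, and which hairpin or guide, stayed unknown, and the labels do not say whether NC cells carried a control construct.

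Autophagy encloses cytoplasm in a double membrane and delivers it to the lysosome. A kinase complex around ULK1 starts the process, a class III PI3-kinase complex marks the membrane with the lipid PI3P, and ATG9 and ATG2 proteins supply lipid to the growing sheet. Enzymes related to those of ubiquitin conjugation then attach ATG8 proteins (LC3 and GABARAP) to the membrane, where receptors such as p62 bind them and bring cargo. In monocytes and macrophages the pathway clears damaged organelles, protein aggregates and microbes.

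Levels are given in TPM, a gene's share of a library's transcripts after division by transcript length, so levels of different genes can be set side by side. The measure keeps no read depth, so counting error could not be given, and a rise of abundant genes lowers the rest. Totals ran from 998932 to 999282 TPM, and mitochondrially encoded genes took 12.5% and 12.7% of the libraries labelled sh-ZNF217 and 9.98% and 10.8% of NC. ZNF217 itself was at 35.8 and 34.97 TPM in libraries labelled sh-ZNF217, against 36.1 and 36.7 TPM in NC (log2 fold change -0.04, limma adjusted p = 0.74). Both values were below both NC values, but the difference was small and did not pass the test, so every direction below is that of a label. No measure of the protein was used here. The study reports that its short hairpins lowered ZNF217 mRNA and protein in its leukemia lines, by assays not used here. The 8 monocytic markers summed to 6807 to 6875 TPM in libraries labelled sh-ZNF217 and 4327 to 4333 TPM in NC, with MPO below 1 TPM in every library. LYZ carried most of that sum, at 5511 and 5328 TPM in libraries labelled sh-ZNF217 and 3270.1 and 3256 TPM in NC, and it was called higher with ITGAM, CSF1R and CD68, while CD33 (log2 fold change 0.06), SPI1 (0.12) and ITGB2 (0.42) were not called. Of 6 T and NK cell markers 2 had a row, as did 0 of 6 erythroid and megakaryocyte and 0 of 6 epithelial and fibroblast markers. The T and NK markers CD2 and NKG7 summed to 101 and 110.3 TPM in libraries labelled sh-ZNF217, against 86.3 and 69.1 TPM in NC, and CD2 was called higher, at 3.77 and 5.33 TPM against 1.12 and 1.68 TPM in NC (limma adjusted p = 0.0308). Of the B cell markers, PAX5 was called lower, at 1.87 and 1.79 TPM in libraries labelled sh-ZNF217 and 3.72 and 4.13 TPM in NC (-0.80, limma adjusted p = 0.0458), and CD79A was at 2.29 and 1.31 TPM against 0.43 and 0.24 TPM in NC (1.06, limma adjusted p = 0.0659). The part of these shifts in the results below was not tested. In bulk RNA, more cells of a kind and more RNA per cell cannot be told apart. Whether replicate libraries stem from separate cultures is not stated, so p-values cover only the spread among these 4 samples, part of which may be technical.

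Among the tested members 3 were called higher in the libraries labelled sh-ZNF217 and 0 lower, where a call needs a log2 fold change of TPM + 1 beyond 0.5 in size together with an adjusted p under 0.05 from limma. The called genes were SQSTM1, MAP1LC3B and RB1CC1. Of all tested genes 8.72% were called, 6.26% higher and 2.46% lower, against 7.69% of members higher, so the number of called members was near the background. Of the calls over all genes 71.8% were higher, and 60.7% after a correction for GC content and length. SQSTM1 alone stayed called under that correction, without sh-ZNF217 replicate 1 and without trended and robust moderation of the variance. With no fold minimum, 7 members were higher at an adjusted p below 0.05 (17.9%, against 9.77% of all tested genes) and 1 was lower (2.56%, against 7.11%). The 5 of these 8 that were short of the fold minimum (WIPI1, BNIP3L, NBR1, OPTN and, lower, ATG3) had an adjusted p above 0.05 whichever library was left out, from 0.0586 to 0.161. Both libraries labelled sh-ZNF217 lay above both NC libraries for 24 members (61.5%, against 33.5% of all tested genes) and below them for 7 (17.9%, against 28.6%). The median log2 fold change was 0.16 over the members and 0.02 over all tested genes, and 27 of 39 members were positive. That median was 0.03 after the GC and length correction, under which all tested genes had a median of -0.04. At an unadjusted limma p below 0.05 and any fold 2 members were lower, 0 of them past the fold minimum, and the same limma model without trend or robust moderation also called 0 lower.

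**Figure D1:**
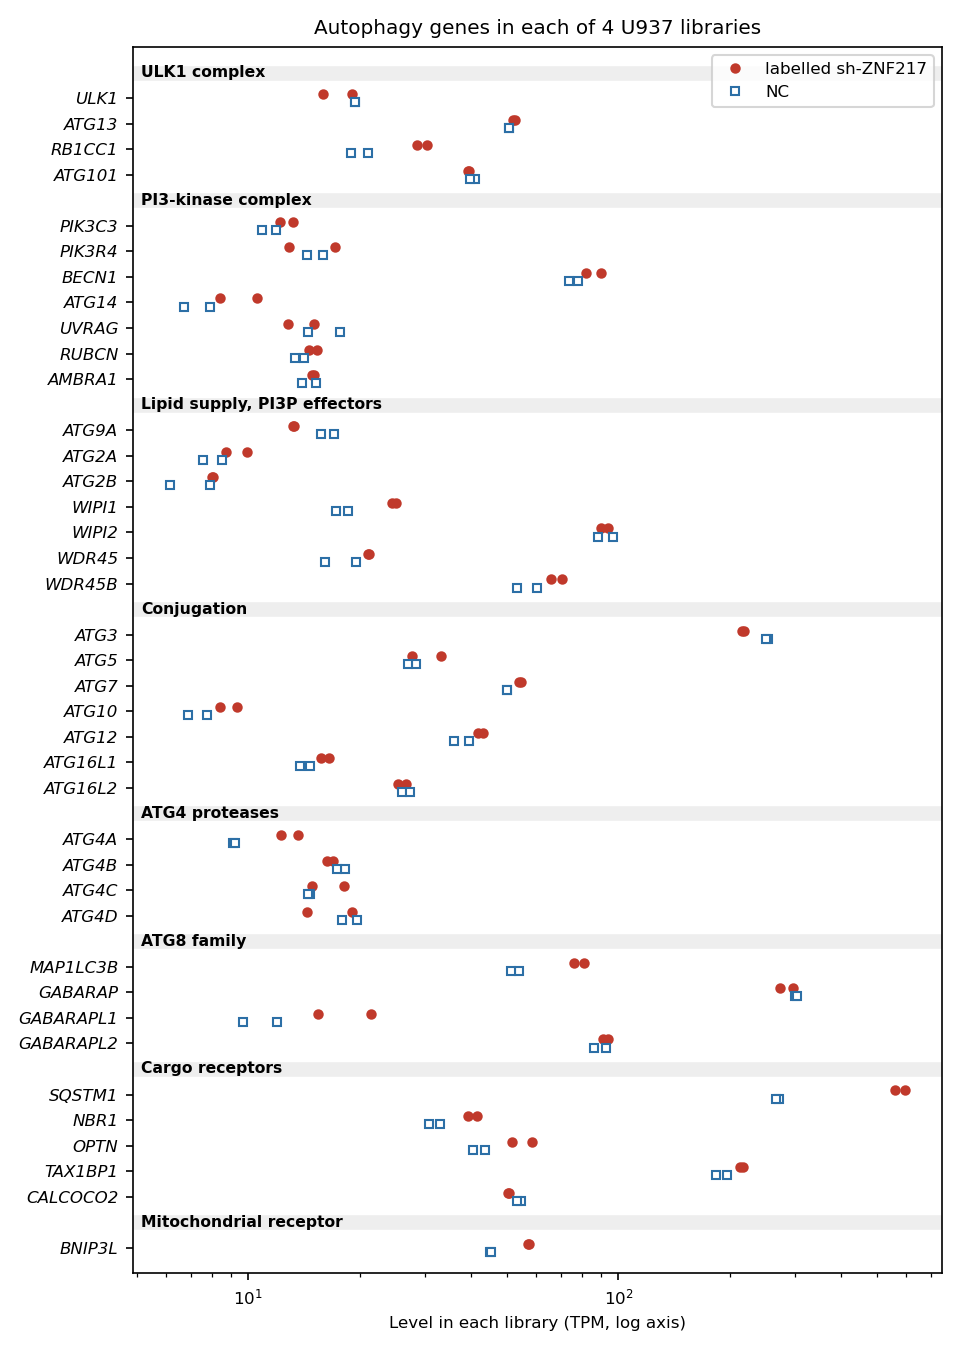
Level in TPM (log axis) of the 39 tested autophagy genes, grouped by role, with a filled red circle for each library labelled sh-ZNF217 and an open blue square for each NC library. SQSTM1 stands apart, at 557 and 596 TPM against 272 and 266 TPM in NC, while most genes lie close together in all 4 libraries.

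The soluble cargo receptors held the largest log2 fold change of the 39 members. SQSTM1 encodes p62, which binds ubiquitin on cargo and ATG8 proteins on the membrane. It rose to 557 and 596 TPM in libraries labelled sh-ZNF217, against 272 and 266 TPM in NC, or 576 ± 27.0 TPM and 269 ± 4.63 TPM (SD, n = 2 each). The groups lay far apart, at 2.14 times the NC mean, with a log2 fold change of 1.10 (SE 0.05, 95% interval 0.96 to 1.23, limma adjusted p = 0.00119). Its p was the 19th smallest among genes with a positive log2 fold change. The call was kept under each of the 14 alternative settings run, with log2 fold changes of 1.05 to 1.14 when single libraries were left out. SQSTM1 (ENSG00000161011) lies on the plus strand of chromosome 5 (179806398 to 179838078, hg38), and its exons overlap those of MGAT4B and MRNIP on the other strand. Whether strand was used in counting is not given in the sources used here, so reads from the overlaps cannot be told apart. MGAT4B was at 186 and 192 TPM in libraries labelled sh-ZNF217 and 180.4 and 185 TPM in NC, and MRNIP was at 8.02 and 6.82 TPM against 6.09 and 5.85 TPM.

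NBR1, a ubiquitin-binding relative of p62, was at 39.3 and 41.6 TPM in libraries labelled sh-ZNF217 and 30.8 and 33.0 TPM in NC (log2 fold change 0.33, limma adjusted p = 0.0439). OPTN, the receptor optineurin of damaged mitochondria and bacteria, was at 51.6 and 58.3 TPM, against 40.4 and 43.6 TPM in NC (0.38, limma adjusted p = 0.0416). Both were higher without overlap of the groups and in this fit missed only the fold minimum. After the GC and length correction the limma adjusted p was 0.0903 for NBR1 and 0.0804 for OPTN. Without trended and robust moderation it was 0.104 for NBR1 and 0.111 for OPTN. TAX1BP1, a receptor that also restrains inflammatory signaling, was at 214 and 217 TPM against 184 and 196 TPM in NC (0.18, limma adjusted p = 0.0808). CALCOCO2, the receptor NDP52 of bacteria and mitochondria, was the only one of the 5 with a negative log2 fold change (-0.09, limma adjusted p = 0.357), at 50.2 and 50.7 TPM against 54.6 and 53.2 TPM in NC. Of the 5 receptors 4 had a positive log2 fold change and only SQSTM1 was called. Differences among the 5 receptors were not tested. Their summed level was 912 and 964 TPM in libraries labelled sh-ZNF217 and 582 and 592 TPM in NC, and SQSTM1 supplied 87.6% of the difference between the group means. It made up 61.1% and 61.8% of the receptor sum in the libraries labelled sh-ZNF217, against 46.8% and 44.9% in NC.

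BNIP3L, also called NIX, sits in the outer mitochondrial membrane and recruits ATG8 proteins to mitochondria, for example in maturing red cells. It was at 57.4 and 57.1 TPM in libraries labelled sh-ZNF217, against 45.1 and 45.3 TPM in NC. The libraries of a group differed by under 1 TPM and the groups did not overlap, but the log2 fold change of 0.33 (95% interval 0.18 to 0.49, limma adjusted p = 0.0249) stayed short of the fold minimum over its whole interval.

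**Figure D2:**
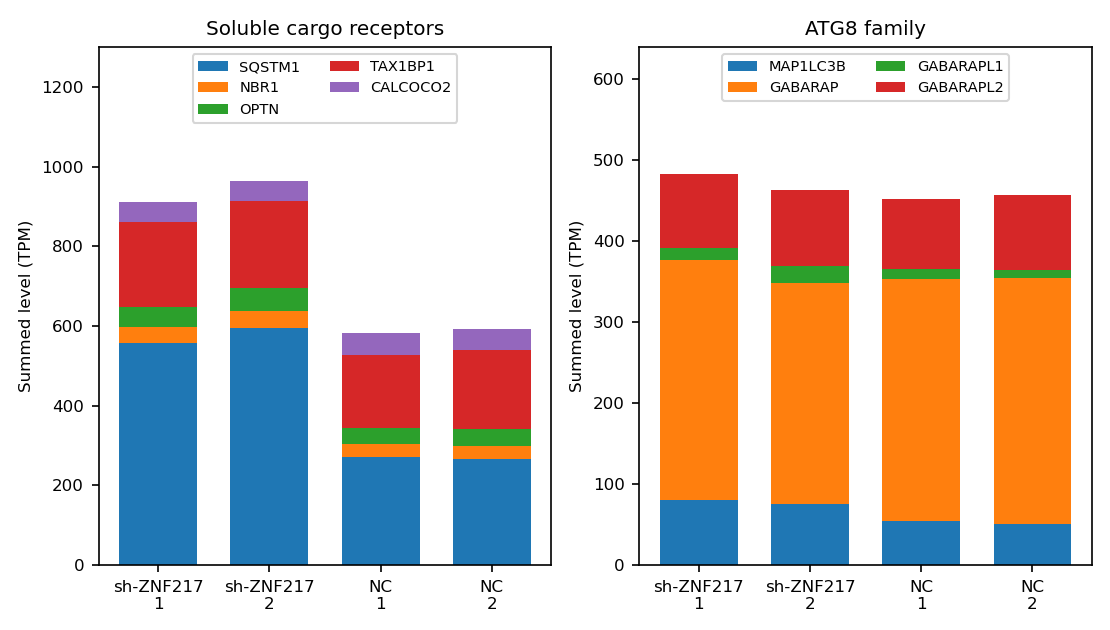
Summed level in TPM of the soluble cargo receptors (left) and of the ATG8 family (right) in each library, with each bar split by gene. The receptor sum is 912 and 964 TPM in libraries labelled sh-ZNF217 against 582 and 592 TPM in NC, mostly through SQSTM1, while the ATG8 sum lies between 452 and 483 TPM in all 4 libraries.

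The ATG8 family, the ubiquitin-like proteins that coat the autophagosome, differed between the groups more in makeup than in summed level. MAP1LC3B, which encodes LC3B, the usual marker of autophagosomes, rose to 80.7 and 75.8 TPM in libraries labelled sh-ZNF217, against 53.8 and 51.3 TPM in NC. The groups were separate, at 78.3 ± 3.47 TPM and 52.6 ± 1.81 TPM (SD, n = 2 each), with a log2 fold change of 0.57 (SE 0.07, 95% interval 0.40 to 0.74, limma adjusted p = 0.00880). The call was lost without sh-ZNF217 replicate 1 (adjusted p = 0.0549) and without trended and robust moderation (0.0528), and the log2 fold change was 0.46 after the GC and length correction, below the minimum. MAP1LC3B (ENSG00000140941) lies on the plus strand of chromosome 16 (87383953 to 87404779, hg38). FBXO31, whose exons overlap it from the other strand, was at 8.95 and 8.32 TPM in libraries labelled sh-ZNF217 and 8.84 and 8.49 TPM in NC. MAP1LC3B has a near-identical copy, MAP1LC3B2, not analysed here, so its level carried that uncertainty.

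GABARAPL1, a GABARAP relative, had the second largest log2 fold change of the members (0.71, SE 0.19, 95% interval 0.24 to 1.17), with 15.4 and 21.5 TPM in libraries labelled sh-ZNF217 and 11.9 and 9.70 TPM in NC. The groups did not overlap, but the libraries within each group differed by more than those of MAP1LC3B in proportion to their level, and the limma adjusted p of 0.0546 missed the threshold. It passed with a filter of 5 TPM (limma adjusted p = 0.0427), when mitochondrially encoded genes were removed (0.0486) and when only protein-coding genes were kept (0.0285). The other alternative settings did not call it. Among these, the adjusted p was 0.0605 with median-of-ratios scaling, 0.0861 with the replicate number as a block and 0.118 without trended and robust moderation. Its log2 fold change ran from 0.48, below the minimum, to 0.93 when single libraries were left out. GABARAP, the most abundant member in NC, was at 296 and 272 TPM in libraries labelled sh-ZNF217, against 299.9 and 303 TPM in NC (log2 fold change -0.09, limma adjusted p = 0.353). GABARAPL2, also called GATE-16, was at 90.7 and 94.0 TPM, against 86.0 and 92.8 TPM in NC (0.05, limma adjusted p = 0.657), so its groups overlapped, and its sign turned to -0.04 after the GC and length correction. The 4 genes summed to 483 and 464 TPM in libraries labelled sh-ZNF217 and to 452 and 457 TPM in NC. MAP1LC3B made up 16.7% and 16.4% of that sum in the libraries labelled sh-ZNF217, against 11.9% and 11.2% in NC, and GABARAP made up 61.3% and 58.7%, against 66.4% and 66.3% in NC. These sums and shares are descriptions without a test.

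Promoters were read for the members from RefSeq (GRCh38.p14), from 250 bases before to 50 bases after each gene's start, and 34 of the 39 tested members matched, with 44 starts. The letters TCACGTGA (the core of the CLEAR element of TFEB and TFE3), CACGTG (an E-box, contained in the first), TTNCATCA (an element of ATF4) and TGACNNNGC (the antioxidant element of NRF2) were searched on both strands. TCACGTGA was in 1 of the 44 windows, that of ATG3, or 2.27% against 0.98% of all 35116 promoter windows. CACGTG was in 2 windows (ATG3 and ATG14, 4.55% against 7.26%), TTNCATCA in 1 (WDR45, 2.27% against 3.62%) and TGACNNNGC in 3 (MAP1LC3B, ATG101 and CALCOCO2, 6.82% against 13.3%). The shares were not adjusted for GC content, whose median was 64.8% in the member windows and 58.7% in all promoter windows. None of the searched letters was in the 3 windows of SQSTM1. The 100 bases before the start are shown for the called genes SQSTM1 and MAP1LC3B and for ATG3, the only member lower at an adjusted p below 0.05, with matches in capitals. They lie on GRCh38.p14 at chr5:179820805-179820904 (plus strand, before the start of the canonical GENCODE transcript among 3 RefSeq starts), chr16:87392236-87392335 (plus strand) and chr3:112561963-112562062 (minus strand).
SQSTM1: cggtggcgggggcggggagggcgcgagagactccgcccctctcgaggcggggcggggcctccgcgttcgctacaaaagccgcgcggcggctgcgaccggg
MAP1LC3B: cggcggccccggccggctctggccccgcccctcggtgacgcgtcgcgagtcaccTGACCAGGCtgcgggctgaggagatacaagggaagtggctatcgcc
ATG3: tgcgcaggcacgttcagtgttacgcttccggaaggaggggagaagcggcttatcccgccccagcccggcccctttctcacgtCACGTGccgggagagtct
The capitals begin 46 bases before the start in MAP1LC3B (TGACNNNGC) and 18 bases before it in ATG3 (CACGTG), and the TCACGTGA of ATG3 begins 5 bases into the gene. A match is a description of the letters and not of a bound site.

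In the initiation complex, RB1CC1, also called FIP200, the scaffold that holds the ULK1 kinase, was the only called gene of the 4 tested. It rose to 30.3 and 28.5 TPM in libraries labelled sh-ZNF217, against 18.9 and 21.0 TPM in NC. The groups were separate, and the log2 fold change of 0.54 (SE 0.09, 95% interval 0.30 to 0.77, limma adjusted p = 0.0209) was just past the minimum. It lost its call with any of 3 libraries left out, which were NC replicate 1 (0.46, adjusted p = 0.0652), sh-ZNF217 replicate 1 (0.49, 0.0972) and sh-ZNF217 replicate 2 (0.58, 0.0728), and also without trended and robust moderation (0.0650) and after the GC and length correction (0.41). RB1CC1 (ENSG00000023287) is on chromosome 8 (52622458 to 52745843, hg38), with no overlap of its exons by another gene. None of its tested partners was called, and their log2 fold changes lay between -0.15 and 0.04. ULK1, the kinase itself, was at 15.96 and 19.1 TPM in libraries labelled sh-ZNF217 and 19.5 and 19.4 TPM in NC (-0.15, limma adjusted p = 0.419), ATG13, which links the kinase to the scaffold, had a log2 fold change of 0.04, and ATG101, the partner of ATG13, one of -0.04.

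**Figure D3:**
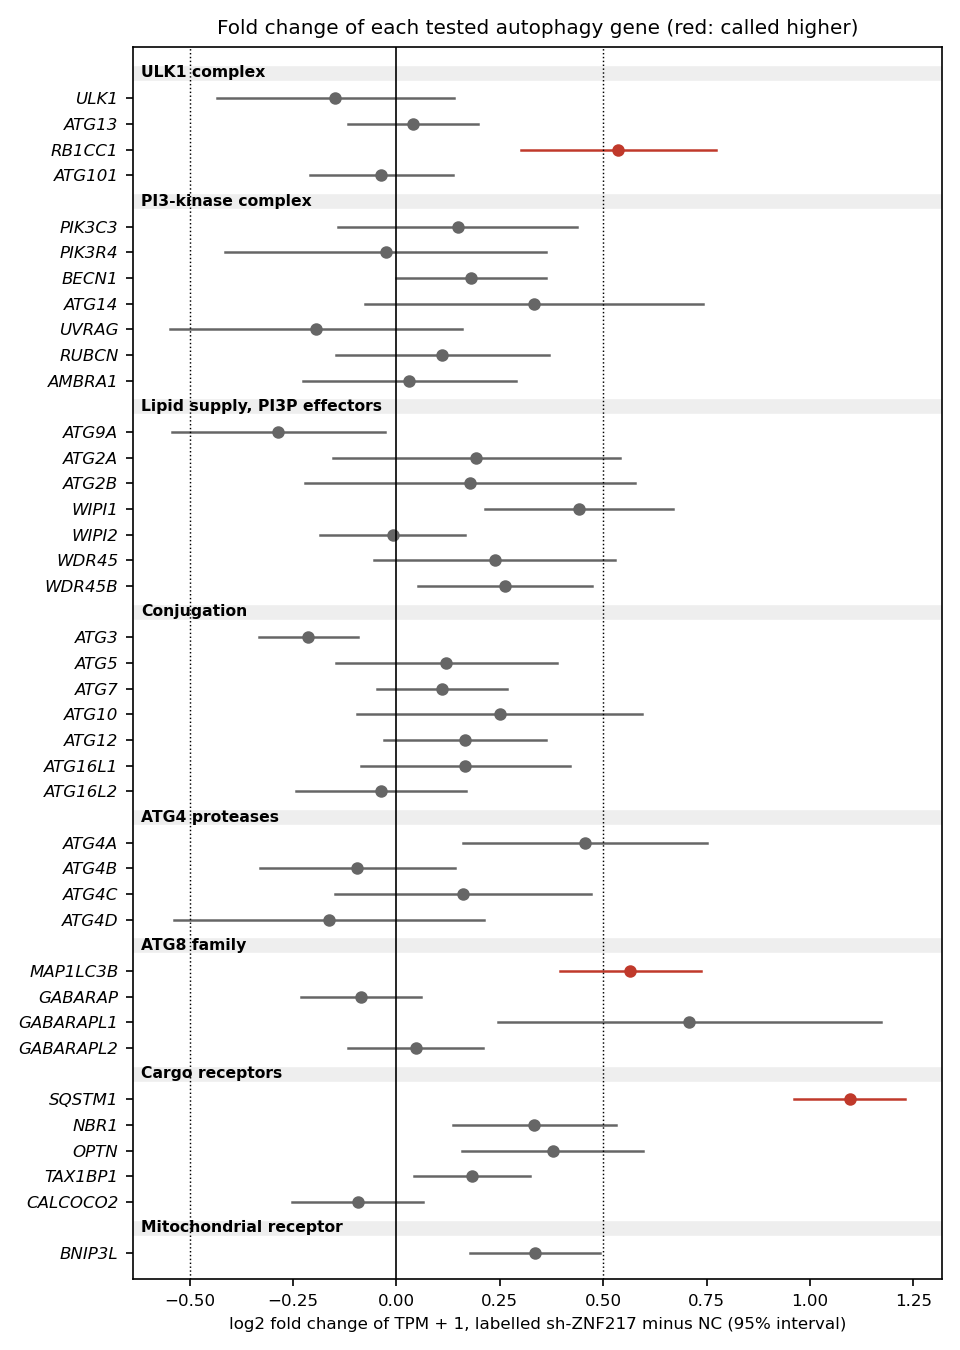
Difference in log2(TPM + 1) between the groups (labelled sh-ZNF217 minus NC) for each tested autophagy gene by role, with a point at the estimate, a line for the 95% interval from limma and dotted lines at the 0.5 minimum. SQSTM1 (1.10), MAP1LC3B (0.57) and RB1CC1 (0.54), in red, were called higher, and GABARAPL1 (0.71) has the widest interval of the genes beyond the minimum.

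The class III PI3-kinase complex held 0 called genes of 7 in limma and 0 at an unadjusted p below 0.05, and its log2 fold changes ran from -0.19 to 0.33. Its largest value was that of ATG14, the subunit that directs the complex to autophagy, at 10.6 and 8.38 TPM in libraries labelled sh-ZNF217 and 6.71 and 7.87 TPM in NC (0.33, limma adjusted p = 0.215). BECN1, the subunit beclin 1, was the most abundant at 81.9 and 89.9 TPM, against 73.6 and 77.7 TPM in NC (0.18, 95% interval -0.0012 to 0.36, limma adjusted p = 0.147). The lipid kinase PIK3C3 (0.15), its regulatory partner PIK3R4 (-0.03), the activator AMBRA1 (0.03), the subunit UVRAG of endosomal complexes (-0.19) and RUBCN, an inhibitor of the complex (0.11), made up the rest. The 95% intervals of 5 of the 7 stayed inside the fold minimum in both directions, with ATG14 and UVRAG reaching beyond it.

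Among the 7 genes of lipid supply and PI3P binding, WIPI1 had the largest log2 fold change, and 0 were called in limma (3 were at an unadjusted p below 0.05, 0 of them past the fold minimum). WIPI1 encodes a propeller protein that binds PI3P on the forming membrane. It was at 24.4 and 25.1 TPM in libraries labelled sh-ZNF217, against 17.3 and 18.7 TPM in NC, and the groups did not overlap (log2 fold change 0.44, 95% interval 0.22 to 0.67, limma adjusted p = 0.0306, short of the fold minimum). The other 3 propeller genes were WIPI2, which recruits the conjugation machinery (-0.01), WDR45 (0.24) and WDR45B (0.26, limma adjusted p = 0.0888), and the intervals of both WDR45 and WDR45B overlapped that of WIPI1. ATG9A, the membrane protein that scrambles lipids between the leaflets, had the lowest log2 fold change of all members (-0.29, limma adjusted p = 0.117), at 13.2 and 13.3 TPM in libraries labelled sh-ZNF217 and 17.0 and 15.7 TPM in NC. The lipid transfer proteins ATG2A (0.19) and ATG2B (0.18) were low, between 6.14 and 9.91 TPM in all libraries.

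Of the conjugation enzymes, ATG3, which transfers ATG8 proteins to the membrane lipid, was the only member lower at an adjusted p below 0.05. It was at 219 and 216 TPM in libraries labelled sh-ZNF217, against 254 and 250.4 TPM in NC. The libraries of a group differed by less than 4 TPM, and the log2 fold change of -0.21 (95% interval -0.33 to -0.09, limma adjusted p = 0.0384) lay inside the fold minimum over its whole interval. The other 6 enzymes held 0 called genes in limma and 0 at an unadjusted p below 0.05. ATG10, the enzyme that joins ATG12 to ATG5, had the largest fold of the group (0.25), at 9.34 and 8.42 TPM in libraries labelled sh-ZNF217 and 7.74 and 6.88 TPM in NC. The activating enzyme ATG7 (0.11), the ubiquitin-like ATG12 (0.17), its partner ATG5 (0.12), ATG16L1, which places the conjugation at the membrane (0.17), and its relative ATG16L2 (-0.04) made up the rest.

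The ATG4 proteases trim ATG8 proteins before conjugation and release them afterwards. ATG4A, which acts mainly on the GABARAP branch, was at 12.2 and 13.6 TPM in libraries labelled sh-ZNF217, against 9.08 and 9.20 TPM in NC, and the groups did not overlap (log2 fold change 0.46, 95% interval 0.16 to 0.75). Its limma adjusted p of 0.0534 missed the threshold. ATG4B, the protease with the broadest range, was at -0.09, ATG4C at 0.16 and ATG4D at -0.16 on the log2 scale, and ATG4D differed between the libraries labelled sh-ZNF217 by more than between the groups, with 14.4 and 19.1 TPM against 19.6 and 17.9 TPM in NC. Of the 36 members that were not called, 23 had a 95% interval inside the fold minimum in both directions, 10 reached above it and 3 below its negative, so the intervals of these last 13 held values past the minimum.

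By mean level, SQSTM1 (576 TPM), GABARAP (284 TPM), ATG3 (218 TPM) and TAX1BP1 (216 TPM) led the members in the libraries labelled sh-ZNF217, and of these only the last pair had libraries that overlapped. In NC the order was GABARAP (301 TPM), SQSTM1 (269 TPM), ATG3 (252 TPM) and TAX1BP1 (189.9 TPM), with no overlap between neighbours. The top place was thus held by SQSTM1 in the libraries labelled sh-ZNF217 and by GABARAP in NC. ATG2A, ATG2B, ATG10 and ATG14 were the lowest in both groups, at means below 10 TPM. Replicate libraries were close for the members, with a median absolute log2 difference of 0.08 between the libraries labelled sh-ZNF217 and 0.10 between the NC libraries, against 0.16 to 0.23 across the groups. Over all tested genes these values were larger, at 0.13, 0.12 and 0.24 to 0.25.

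Further autophagy genes were taken from 5 lists that hold 90 genes, of which 84 were tested. Of these, 12 were called higher and 0 lower (14 higher and 0 lower at an unadjusted limma p below 0.05 with the fold minimum), and at any fold 24 were higher and 7 lower at a limma adjusted p below 0.05. The shares over all tested genes were 6.26% called higher and 2.46% called lower, and 9.77% higher and 7.11% lower at any fold. The median log2 fold change was 0.24, against 0.02 over all tested genes. Without trended and robust moderation 5 of them were called higher, under which 3.84% of all tested genes were. Fewer were called higher in each fit with a single library left out, and this also held over all tested genes. Of 20 genes in the list of other selective receptors 2 were called higher. CCPG1, a receptor in the membrane of the endoplasmic reticulum, rose to 70.35 and 65.0 TPM in libraries labelled sh-ZNF217, against 37.3 and 36.7 TPM in NC (log2 fold change 0.85, limma adjusted p = 0.00400). CALCOCO1, a soluble receptor related to CALCOCO2, rose to 20.6 and 21.4 TPM, against 10.7 and 12.5 TPM in NC (0.81, limma adjusted p = 0.0121), a call lost when sh-ZNF217 replicate 1 (adjusted p = 0.0650) or replicate 2 (0.0678) was left out. At an adjusted p below 0.05 but short of the fold minimum, SEC62 (0.40, limma adjusted p = 0.0161) and RTN3 (0.31, 0.0205), receptors of the endoplasmic reticulum, were higher, and PHB2 (-0.38, 0.0136) and NIPSNAP1 (-0.39, 0.0264), receptors on damaged mitochondria, were lower. These 4 were named after their values were seen. Other genes listed for both organelles did not pass the test, among them the receptors RETREG1 (0.22), TEX264 (0.14) and ATL3 (0.06) of the endoplasmic reticulum. For mitochondria these were FUNDC1 (0.20), BCL2L13 (0.07), FKBP8 (-0.12), NIPSNAP2 (-0.15) and PINK1 (0.25), a kinase and not a receptor.

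In the signaling that controls initiation, 5 of 26 genes of the AMPK and mTORC1 pathways were called higher. Over all tested genes the share called higher was 6.26%. At any fold, 8 of the 26 were higher and 2 lower at a limma adjusted p below 0.05. The shares over all tested genes were 9.77% higher and 7.11% lower. The lower ones, named after their values were seen, were LAMTOR2 (-0.33, limma adjusted p = 0.0135) and MLST8 (-0.34, 0.0389). DDIT4, an inhibitor of mTORC1 induced by stress, rose to 35.9 and 32.6 TPM in libraries labelled sh-ZNF217, against 15.2 and 11.5 TPM in NC (log2 fold change 1.31, limma adjusted p = 0.00725). RRAGC and RRAGD are GTPases that bring mTORC1 to the lysosome. RRAGC rose to 100.03 and 102 TPM, against 69.6 and 66.2 TPM in NC (0.57, limma adjusted p = 0.00644). RRAGD rose to 26.6 and 29.1 TPM, against 18.9 and 19.4 TPM in NC (0.52, limma adjusted p = 0.0204). The pair fell short of the fold minimum after the GC and length correction (0.42 and 0.36), and RRAGD also with median-of-ratios scaling (0.48). The call of DDIT4 was lost without sh-ZNF217 replicate 1 (adjusted p = 0.0537), and that of RRAGD with NC replicate 1 (0.0619), sh-ZNF217 replicate 1 (0.0675) or sh-ZNF217 replicate 2 (0.0896) left out and without trended and robust moderation (0.0614). Of 14 other phagophore factors 2 were called higher. Among them was DAPK1, a kinase that phosphorylates beclin 1, at 37.3 and 36.1 TPM against 24.2 and 25.8 TPM in NC (0.54, limma adjusted p = 0.0136). Its log2 fold change was 0.49 with NC replicate 1 left out, and its adjusted p was 0.0744 without sh-ZNF217 replicate 1, 0.0640 without sh-ZNF217 replicate 2 and 0.0550 without trended and robust moderation.

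Of 9 transcription factors of autophagy genes 3 were called higher. Over all tested genes the share called higher was 6.26%. TFE3, which activates genes of lysosomes and autophagy, rose to 33.9 and 34.1 TPM in libraries labelled sh-ZNF217, against 19.4 and 19.2 TPM in NC (log2 fold change 0.78, limma adjusted p = 0.00568). Its relative MITF rose to 10.4 and 9.26 TPM, against 5.72 and 4.93 TPM in NC (0.78, limma adjusted p = 0.0259), a call that did not hold with NC replicate 2 (adjusted p = 0.0753), sh-ZNF217 replicate 1 (0.111) or sh-ZNF217 replicate 2 (0.0778) left out or without trended and robust moderation (0.0514). TFEB, of the same family, was at 22.3 and 21.9 TPM against 19.7 and 16.6 TPM in NC (0.27, limma adjusted p = 0.148). ATF4 was lower without overlap of the groups, at 277 and 306 TPM against 360 and 383 TPM in NC. Its log2 fold change of -0.35 (limma adjusted p = 0.0260) was short of the fold minimum and the only negative one of the 9. ATF4 was named after its values were seen. None of 15 tested genes of autophagosome and lysosome fusion was called in limma, with 0 past the fold minimum at an unadjusted p and log2 fold changes from -0.34 to 0.48. At any fold, 3 of the 15 were higher and 2 lower at a limma adjusted p below 0.05, where the shares over all tested genes were 9.77% higher and 7.11% lower. The higher genes were VPS41 (0.41, limma adjusted p = 0.0192), YKT6 (0.36, 0.0301) and VPS18 (0.34, 0.0419). The lower ones were VAMP8 (-0.34, limma adjusted p = 0.0115) and BLOC1S1 (-0.26, 0.0340). These genes were named after their values were seen.

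**Figure D4:**
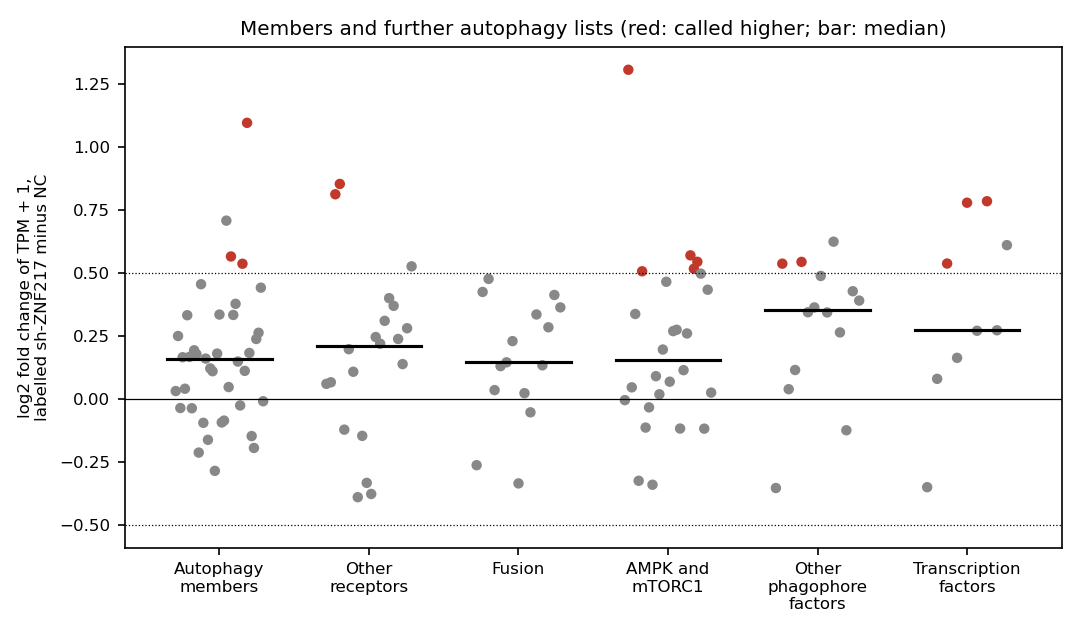
Difference in log2(TPM + 1) between the groups (labelled sh-ZNF217 minus NC) for the 39 tested autophagy members and the tested genes of 5 further lists, with red points for genes called higher, a bar at each median and dotted lines at the 0.5 minimum. The medians are 0.16 for the members and 0.15 to 0.35 for the further lists, and DDIT4 (1.31) and SQSTM1 (1.10) are the highest points.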

How the data were processed

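Total RNA of 4 U937 samples was made into libraries with a TruSeq RNA kit, per the labels, and sequenced by a commercial provider. Reads were aligned to hg38 with HISAT2 2.0.5, per the submitters' processing notes, while the quantifier, the annotation release, whether strand was used and the depth were not stated in the sources read here. The study names its measure FPM. The authors deposited TPM values, recognised from the table, whose columns sum to between 998932 and 999282 and show no steps of whole reads, and in which long and short coding genes have similar levels. Each column was given to a sample through NC or ZNF in its name and its replicate number. Further parts of the names are unexplained, and the match of the libraries labelled sh-ZNF217 rests on there being 2 groups. GENCODE 44 named 16143 of 17656 identifiers. Of the tested members, 24 overlap exons of another gene.

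Genes with at least 1 TPM in 2 libraries were fitted on log2(TPM + 1), which understates the change of low genes, with limma 3.58.1 in R 4.3.3 (group alone, trended and robust empirical Bayes, two-sided), as sh-ZNF217 minus NC, and p-values were adjusted by the Benjamini-Hochberg method across 14582 genes. The 0.5 fold minimum follows the study. The procedure was tested on simulated data. Named genes were all members, with values per library for those called, those at an adjusted p below 0.05, the receptors and ATG8 genes and the largest of each role, and the 8 called genes of smallest p from the further lists. Some other genes of these lists were named after their values were seen. Members and lists were chosen with earlier results of these data known. The 14 alternatives comprise 2 pseudocounts, 2 filters, scalings, gene subsets, a GC and length correction, a replicate block, plain moderation and each library left out. Python 3.11.15 and matplotlib 3.10.9 drew the figures. One further marker is not reported here.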

Additional observations from a re-analysis of the deposited data

How the results depend on the processing

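SQSTM1 kept its call under all 14 alternatives, and the counts of called members were otherwise small enough for 1 setting to change them. With the GC and length correction 1 member was called higher, 1 further pathway gene was called lower and the members' median log2 fold change was 0.026. Without trended and robust moderation 1 member was called higher, with 560 genes higher and 163 lower over the whole table and 5 further pathway genes higher. Leaving out single libraries gave 1 to 3 members higher, 294 to 712 genes higher, 129 to 317 genes lower and 3 to 9 further pathway genes higher. Signs turned for 9 members, none of them called. Under the GC and length correction these were ATG101 (0.026), ATG5 (-0.052), ATG16L2 (0.026), ATG4C (-0.00082) and GABARAPL2 (-0.045). Without mitochondrially encoded genes they were PIK3R4 (0.0079) and WIPI2 (0.027), and with median-of-ratios scaling AMBRA1 (-9.13e-05). Over left-out libraries AMBRA1 ran from -0.026 to 0.089, WIPI2 from -0.078 to 0.059, GABARAPL2 from -0.0070 to 0.10, PIK3R4 from -0.22 to 0.17, ATG4D from -0.35 to 0.028 and ATG5 from -0.0042 to 0.25. The cause of these changes was not tested. The fit with the replicate number as a block (replicate block) called 3 members higher and 0 lower, with a correlation of -0.0053 between deviations of same-numbered libraries, so the numbers were not taken as pairs. No depth was known, so the limits set by counting could not be given.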
